A study of Homo sapiens with 2 samples.

Results

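Ribosome biogenesis and nucleolar genes were examined in a table of ChIP-seq peaks from CAL27, an established line from a human tongue carcinoma. A list of 60 genes was looked up by exact symbol among the gene and feature entries of the 1900 peaks, and 25 of the 60 genes had an entry. Each of these genes had 1 peak, so 25 peaks are described. The cells had received lentivirus carrying KLF7 with a myc tag, and were fixed with 1% formaldehyde before the chromatin was sonicated. The compared groups were 1 library precipitated with the Myc antibody D3N8F and 1 input library made without an antibody. Both groups carried myc-KLF7, neither was replicated, and cells lacking myc-KLF7 were not analysed here. The tag is a stretch of the human MYC protein, so signal from tagged KLF7 and from the MYC of these cells cannot be told apart.

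Ribosomes are assembled in the nucleolus. RNA polymerase I transcribes the precursor of the large ribosomal RNAs, small nucleolar ribonucleoproteins modify it, and many factors then cleave, fold and export the small and large subunits. The genes of these factors are well-known targets of MYC, which binds the E-box CACGTG together with MAX. KLF and SP factors, KLF7 among them, bind GC-rich boxes with the core GGGCGG.

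A peak entry was found for 41.7% of the listed genes (25 of 60), compared with 6.18% of 20007 protein-coding genes in GENCODE v44 (1236 genes). The list was drawn up with earlier results of these peaks known, so its share is a description. Genes silent in these cells are part of the background, since expression was not used here. Genes named differently in the deposited annotation and in GENCODE v44 count as having no entry, which can lower the background share. Allowing synonyms left the listed genes at 25 and raised the further list described next from 16 to 17 genes. The change over all protein-coding genes was not counted. A further list of 108 genes of the same pathway had entries for 16 genes (14.8%). Each listed gene was placed in a single role group, so the shares of small groups depend on that placing. The box C/D group (FBL, NOP56 and NOP58) had entries in 3 of 3 and the RNA polymerase I group in 5 of 8. General nucleolar proteins had entries in 4 of 7 and small subunit factors in 8 of 19. Large subunit factors had entries in 4 of 19 and the box H/ACA proteins in 1 of 4. In the further list, 0 of 9 other genes of small nucleolar ribonucleoproteins and 1 of 9 other RNA polymerase I genes had an entry. Its other groups had entries in 7 of 38 small subunit, 6 of 40 large subunit and 2 of 12 exosome genes. Nearly all listed genes have CpG-rich starts (58 of 60, GC content over 50% and a CpG ratio over 0.6 within 500 bp), and over all 12959 protein-coding genes of that kind the share with an entry was 8.42%. With a q-value under 0.001, 22 of the 60 genes (36.7%) still had a peak, compared with 4.82% of all protein-coding genes. With at least 5-fold enrichment the shares were 31.7% and 3.77%.

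**Figure D1:**
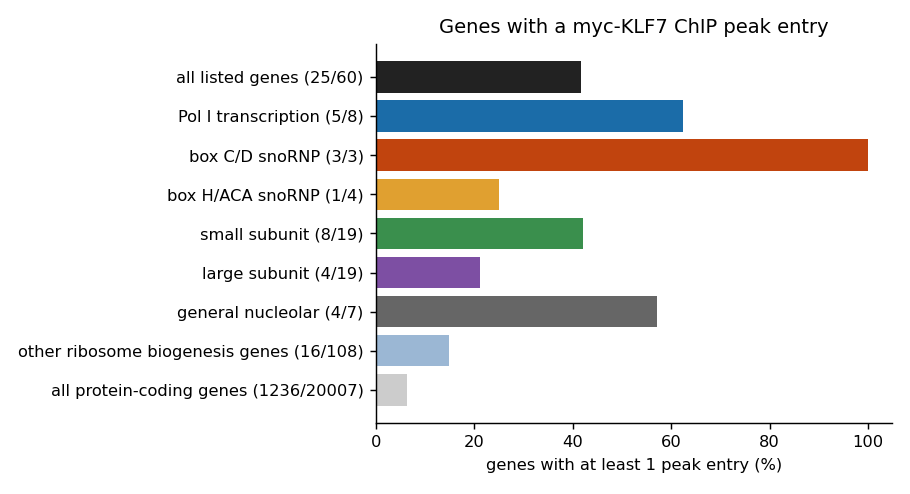
Share of genes with at least 1 peak entry (horizontal axis, percent) for the 60 listed genes, their 6 role groups, 108 other ribosome biogenesis genes and all protein-coding genes, with gene counts in brackets. The listed genes reached 41.7% and all protein-coding genes 6.18%.

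Apart from that of RRP12, the peaks lay near the gene starts, and mostly just inside the genes when measured from the canonical transcript. The deposited annotation gave a promoter entry for the gene itself, which refers to the stretch before the start, in only TCOF1 and DDX21 (2 of 60, against 2.06% of all protein-coding genes). A promoter or 5' UTR entry was present for 13 listed genes, compared with 3.11% over all. The 11 with a 5' UTR entry were FBL, NOP56, NOP16, DKC1, NOL6, RRP1, PNO1, UTP15, POLR1B, NAT10 and NLE1. Of the other 12 peaks, those of NOB1, WDR43, GNL3, POLR1C and PPAN were annotated to an exon (5) and those of NCL, NPM1, NOP58, NOLC1, RRP12, TAF1D and IMP4 to an intron (7). Measured from the start of the canonical transcript, 19 summits were downstream and 6 upstream, with a median of 44 bp and a median absolute distance of 53 bp. Within 100 bp downstream lay the summits of NOL6 (7 bp), FBL (25 bp), NLE1 (35 bp), NOP16 (36 bp), NOB1 (39 bp), UTP15 (40 bp), NAT10 (44 bp), POLR1C (45 bp), PPAN (48 bp), WDR43 (53 bp), GNL3 (66 bp) and DKC1 (94 bp). Further inside were POLR1B (184 bp), NOLC1 (318 bp), IMP4 (330 bp), NOP58 (372 bp), TAF1D (527 bp), NCL (667 bp) and NPM1 (713 bp). The 6 upstream summits were those of NOP56 (-7 bp), RRP1 (-18 bp), PNO1 (-28 bp), DDX21 (-101 bp), TCOF1 (-109 bp) and RRP12 (-11731 bp). In that transcript, 6 summits were in the 5' UTR of exon 1, 7 in the coding part of exon 1, 5 in intron 1, 1 in intron 2 and 6 before the start. The annotation release behind the deposited table is not given in the sources used here. It lists the gene's start for 16 of these genes, and from those starts the median absolute distance was 65.5 bp, with 14 summits downstream and 2 upstream. RRP1 (46 bp) and PNO1 (16 bp) were then downstream, and NPM1 (1446 bp) and POLR1B (734 bp) lay further inside than from the canonical start. A summit within 500 bp of the start was found for 21 listed genes, compared with 4.06% of all protein-coding genes, and within 2000 bp for 24, compared with 5.05%.

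Among peaks within 2000 bp of any protein-coding start, 19 of 24 summits of the listed genes (79.2%) were downstream of the nearest start, compared with 46.5% of the 852 other peaks. This depended on which transcript was taken: from the nearest annotated transcript start of the gene itself, 14 of 25 summits were downstream and 10 upstream, with a median of 3 bp. That count was not made for the 852 other peaks. In NCL, the summit was 667 bp inside the canonical transcript but at -124 bp, upstream, of another start of the same gene. In NPM1 it was 713 bp inside and at -50 bp of another start.

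**Figure D2:**
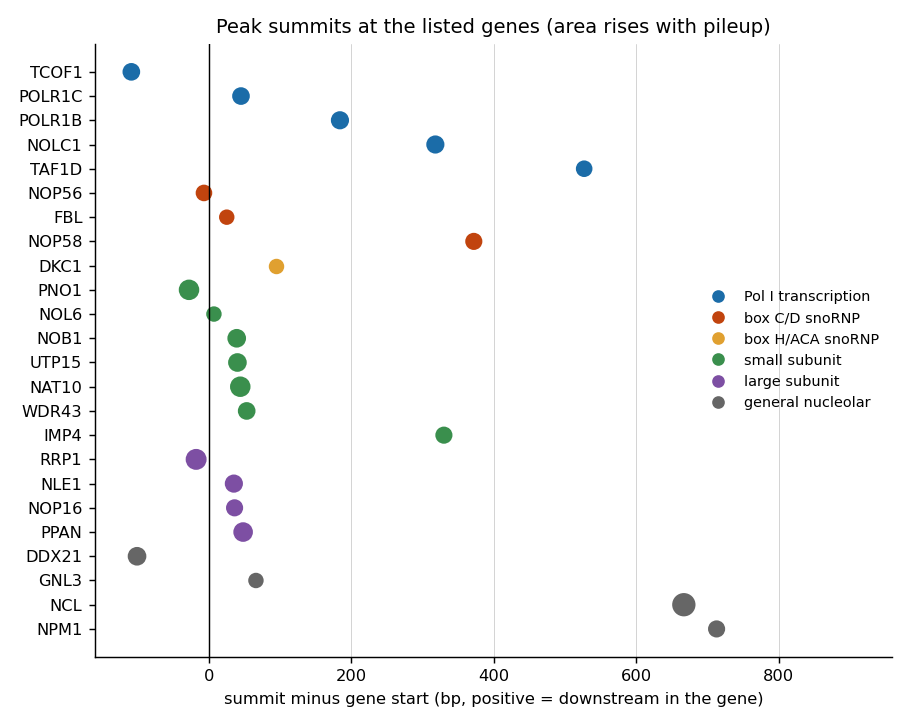
Position of the peak summit relative to the canonical gene start (horizontal axis, bp) for 24 listed genes, coloured by role, with larger points for higher pileups. Summits gather between -109 and 94 bp, and 7 lie between 184 and 713 bp downstream, while RRP12, at -11731 bp, is outside the axis.

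Sequences under some of these peaks, chosen for holding at least 1 of the 2 best known elements, show what the elements look like there. The 7 peaks with neither element, with fold enrichments of 5.76 to 7.08, are therefore not among them. The 8 peaks with the highest fold enrichment that held CACGTG or GGGCGG within 100 bp of the summit are given as 30 bases of the reference (hg38), read 5′ to 3′ on the strand of the gene, with the element in capitals. Where a peak held both, the stretch shows CACGTG. NCL, PNO1, NLE1 and WDR43 also held GGGCGG, which was nearer the summit than CACGTG in PNO1 (13 against 37 bp) and WDR43 (8 against 45 bp). NCL is chr2:231463783-231463812 (minus strand, intron 1), PNO1 is chr2:68157885-68157914 (plus, 5' UTR of exon 1), NPM1 is chr5:171388562-171388591 (plus, intron 1) and NLE1 is chr17:35142274-35142303 (minus, 5' UTR of exon 1). WDR43 is chr2:28894658-28894687 (plus, 5' UTR of exon 1). The printed peaks without CACGTG are RRP1 at chr21:43789491-43789520 (plus, before the start), TCOF1 at chr5:150357565-150357594 (plus, before the start) and POLR1C at chr6:43517190-43517219 (plus, intron 1).
NCL: ctgtgtttcgggCACGTGgtggcctaccag
PNO1: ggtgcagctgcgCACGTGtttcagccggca
NPM1: aaccgctgggagCACGTGgttgcCACGTGg
NLE1: ctctttctcctcCACGTGgggacgcaggat
WDR43: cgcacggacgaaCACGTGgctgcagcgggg
RRP1: tggcgtgcgcctGGGCGGtgtcgcgggctg
TCOF1: cttcgccttgagGGGCGGggccggccactc
POLR1C: ggccttgagctcGGGCGGgaggaatgagag

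The values of each peak are the pileup, which counts ChIP fragments at the summit, and the fold enrichment, the pileup plus 1 over the local background rate plus 1. Over the 25 peaks the pileup ranged from 9 to 26 with a median of 13, equal to the median of all 1900 peaks, and the background rate from 0.927 to 3.45. The median fold enrichment was 5.48, between 3.75 and 10.5, compared with 5.06 for all peaks and 5.27 for the 852 other peaks near a start. At least 5-fold enrichment was reached by 76% of the peaks of the listed genes and 59.2% of the other peaks near a start. Among the highest 25% of the whole table by fold enrichment were 10 of the 25 (40%) and 28.3% of the other peaks near a start. Exact 95% Poisson intervals of the pileups, which cover counting error only, all overlapped each other. That of NCL (17 to 38.1) barely met those of the peaks with 9 fragments (4.12 to 17.1). Such overlap does not show that 2 counts are alike, and the intervals do not measure fold enrichment. The order of single genes by fold enrichment given below was not tested. By q-value the 25 peaks ranked between 159.5 and 1815.5 of 1900, with a median of 938, and by pileup between 325.5 and 1762, with a median of 1028. All 25 peaks had q-values under 0.05 by the authors' calling, from 0.0127 for TAF1D to 2.66e-19 for NCL.

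General nucleolar proteins included the strongest peak. NCL encodes nucleolin, an abundant protein that binds ribosomal RNA precursors. Its peak in intron 1 (chr2:231463610-231464112) had a pileup of 26 fragments (95% interval 17 to 38.1) and a fold enrichment of 10.5, ranking 34.5 of 1900 by fold enrichment, with ties sharing their mean rank. DDX21, an RNA helicase of the nucleolus, had a pileup of 15 (8.4 to 24.7), enriched 6.91-fold (rank 253.5), with the summit at -101 bp. NPM1 encodes nucleophosmin, a histone and ribosome chaperone. Its pileup was 12 (6.2 to 21) and its fold enrichment 6.75 (rank 281), at the lowest background rate of the table (0.927), a floor shared with GNL3. GNL3, the GTPase nucleostemin, had a pileup of 9 (4.12 to 17.1), enriched 5.19-fold (rank 877.5). NPM3, LYAR and MYBBP1A had no peak entry.

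In the RNA polymerase I group, NOLC1, which encodes a phosphoprotein scaffold of the nucleolus, had the highest fold enrichment, 7.08 (rank 224.5), with a pileup of 14 (7.65 to 23.5) and a summit 318 bp inside the gene. TCOF1, encoding treacle, and POLR1C, a subunit that RNA polymerases I and III share, both had a pileup of 13, enriched 5.45-fold (rank 727). The TCOF1 peak was the longest of the listed genes, 846 bp. POLR1B, the second-largest subunit of the polymerase, had a pileup of 14, enriched 4.69-fold (rank 1194). TAF1D, a subunit of the promoter factor SL1, had a pileup of 11 (5.49 to 19.7), a fold enrichment of 3.75 and a rank of 1662.5, the weakest of the 25 peaks by fold enrichment. Its summit was 527 bp inside the gene, where the table also gives a promoter entry for the neighbour C11orf54. POLR1A, the largest subunit, and the initiation factors UBTF and RRN3 had no peak entry.

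All 3 genes placed in the box C/D group had a peak, and the fold enrichment of each was below the median of the 25 peaks. RRP9, which had no entry, was placed with the small subunit factors and is not counted in this group. FBL encodes fibrillarin, the methyltransferase of these particles, and had a pileup of 9 (4.12 to 17.1) with a fold enrichment of 4.55 (rank 1302.5), 25 bp inside the gene. NOP56, a core protein of the particle, had a pileup of 11, enriched 5.05-fold (rank 973), at -7 bp, just upstream of the start. NOP58, its partner, had a pileup of 12, enriched 5.21-fold (rank 847), in intron 1 at 372 bp. Of the box H/ACA proteins, which carry out pseudouridylation, only DKC1, the catalytic subunit dyskerin, had an entry. Its pileup was 9 and its fold enrichment 4.81 (rank 1126), 94 bp inside the gene. NHP2, NOP10 and GAR1, the other proteins of the same particle, had none.

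Among small subunit factors, PNO1, which binds the pre-40S particle, had the second-highest fold enrichment of the listed genes. Its pileup was 19 (11.4 to 29.7) and its fold enrichment 9.88 (rank 47), with the summit at -28 bp (chr2:68157720-68158157). UTP15, a part of the early processome, had a pileup of 15, enriched 7.07-fold (rank 226). IMP4, which joins the U3 particle to the precursor, had a pileup of 12, enriched 6.44-fold (rank 368.5). These 3 genes were above the median of the 25 peaks, 5.48, while WDR43 was at it and the next 3 were below it. WDR43, also of the early processome, had a pileup of 13, enriched 5.48-fold (rank 700.5). NOB1, the endonuclease that makes the last cut of the small subunit RNA, had a pileup of 15, enriched 5-fold (rank 994.5). NOL6, another processome factor, had a pileup of 9, enriched 4.91-fold (rank 1036.5). NAT10, an RNA acetyltransferase, had a pileup as high as PNO1, 19 fragments, but a fold enrichment of 4.49 (rank 1340.5), with the highest background rate of the 25 peaks, 3.45. RRP12, an export factor, differed from the others in place: the summit was at -11731 bp, upstream of the canonical start, in a stretch the table annotates as an intron of RRP12. That peak had a pileup of 12, enriched 6.08-fold (rank 469). The 11 small subunit genes without an entry were NOP14, RRP9, WDR75, BYSL, UTP4, UTP20, DDX10, DDX47, IMP3, TSR1 and LTV1.

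Large subunit factors had the lowest share with a peak of the 6 groups (21.1%), next to 25% of the box H/ACA proteins. NLE1, which encodes a late assembly factor, had a pileup of 14, enriched 6.31-fold (rank 391.5). PPAN, a factor of early pre-60S particles, had a pileup of 17 (9.9 to 27.2), enriched 6.24-fold (rank 404), and the same peak is annotated to the read-through gene PPAN-P2RY11. NOP16, which joins the nucleolar large subunit particle, had a pileup of 12, enriched 5.76-fold (rank 576.5). RRP1, which takes part in processing of the large subunit RNA, had the second-highest pileup of the listed genes, 20 (12.2 to 30.9), with a fold enrichment of 5.49 (rank 691.5). All 4 peaks of the group were above the median fold enrichment of the 25. The 15 genes without an entry were NOP2, BOP1, PES1, WDR12, WDR74, GNL2, GNL3L, RRS1, DDX18, MRTO4, NIP7, GRWD1, NOC2L, NOC3L and URB2, so that PES1, BOP1 and WDR12, which form 1 complex, were all without a peak. For the 35 listed genes without an entry, the nearest summit on the chromosome was 16502 bp (WDR74) to 6316648 bp (WDR75) from the start. A gene without an entry had no peak called at this depth, which does not show that nothing was bound there.

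**Figure D3:**
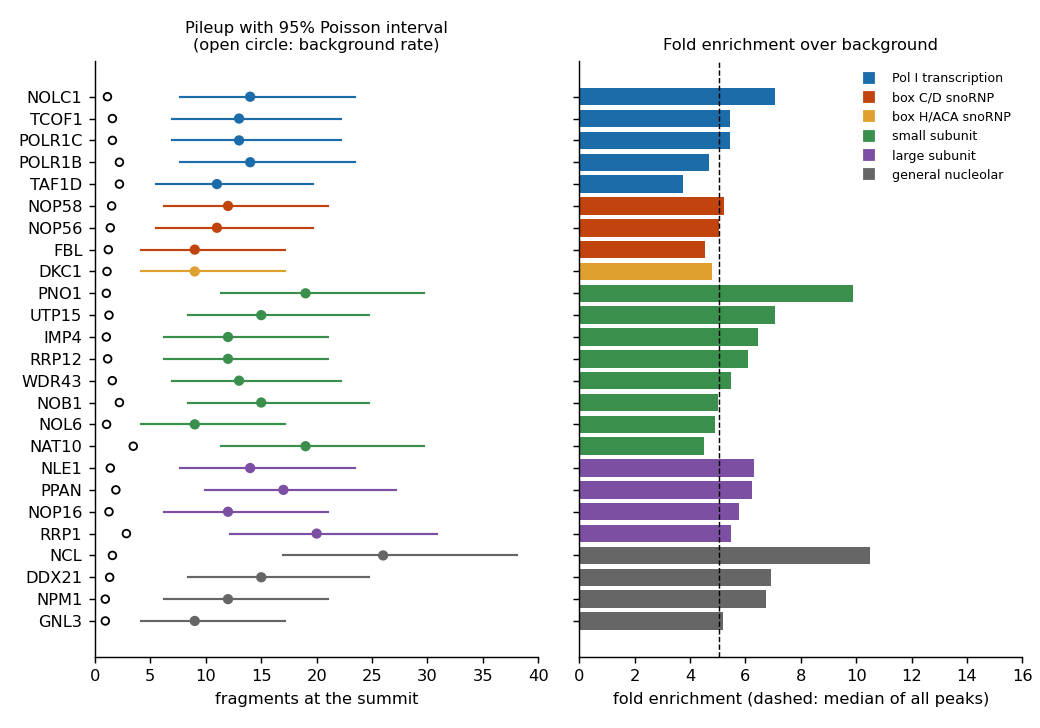
Pileup with its 95% Poisson interval and background rate (left, fragments at the summit) and fold enrichment (right) for the 25 listed genes with a peak, coloured by role. NCL and PNO1 have the highest fold enrichment, 10.5 and 9.88, and TAF1D the lowest, 3.75.

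**Figure D4:**
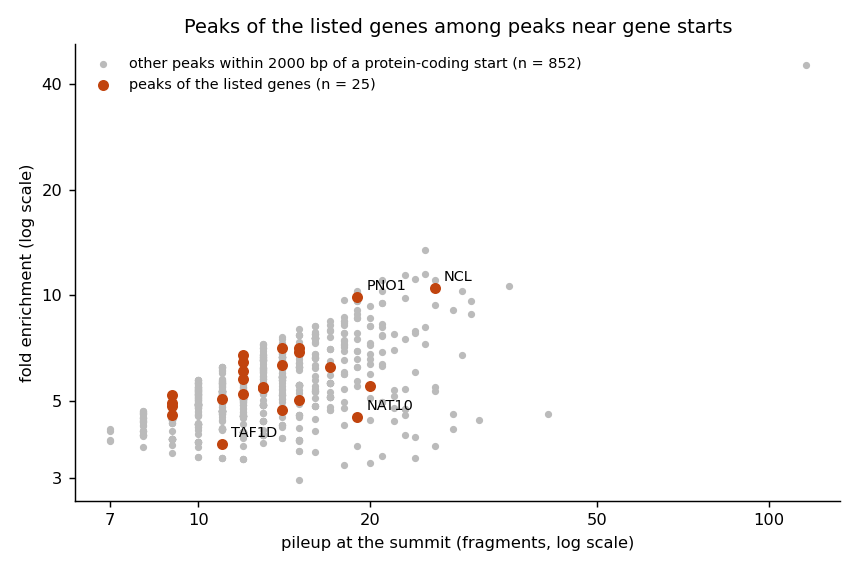
Pileup (horizontal axis, fragments, log scale) against fold enrichment (vertical axis, log scale) for the 25 peaks of the listed genes and 852 other peaks within 2000 bp of a protein-coding start. The peaks of the listed genes, with pileups of 9 to 26, lie within the range of the other peaks.

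CACGTG was found within 100 bp of the summit, on either strand, in 12 of the 25 peaks (48%), compared with 25.6% of the 852 other peaks near a start and 5.66% of windows of the same length centred on all 20007 protein-coding starts. The 12 peaks were those of NCL, NPM1, FBL, NOP58, NOL6, WDR43, GNL3, PNO1, POLR1B, TAF1D, NAT10 and NLE1. NCL held 3 copies, NPM1 and NAT10 held 2 each, and the median distance from summit to the nearest copy was 22 bp. GGGCGG was also found in 12 of the 25 peaks (48%), below its share of 71.1% in the other peaks near a start and 53.6% at all starts. The longer GGGGCGGGG, which contains GGGCGG, was in the peaks of NCL, NOP56, TCOF1 and NLE1 (16%), compared with 21.1% and 18%. The GC content around the summits was lower than in the other peaks near a start, with medians of 63.2% and 70.1%, and whether this accounts for the share of GGGCGG was not tested. The listed genes also had a similar share at their own starts. Within 100 bp of the start, GGGCGG was found in 51.7% of the 60 genes, 48% of those with a peak entry and 54.3% of those without. Over all protein-coding genes with a CpG-rich start this share was 71.5%.

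Both CACGTG and GGGCGG were present in 6 peaks, CACGTG alone in 6, GGGCGG alone in 6 and neither in 7. Other sequences that MYC or KLF factors may bind were not searched. The 7 peaks with neither were at NOP16, NOLC1, RRP12, UTP15, DDX21, PPAN and IMP4. Their fold enrichment was 5.76 to 7.08, so all were above the median of the 25 peaks. The median fold enrichment was 5.2 in the peaks with CACGTG and 5.76 in those without, although NCL and PNO1, the 2 highest, held it. Over all peaks on chromosomes 1 to 22, X and Y the medians were 5.45 with and 5.04 without. Within 500 bp either side of the start, CACGTG was found in 23 of 35 listed genes without a peak entry (65.7%) and 16 of 25 with one (64%), compared with 18.3% of all protein-coding genes. Within 100 bp of the start these shares were 54.3% (19 of 35), 36% (9 of 25) and 5.66%. Put the other way, 41% of the listed genes with CACGTG within 500 bp of the start had a peak entry and 42.9% of those without it. In the further 108 genes of the pathway these shares were 24.5% (12 of 49) and 6.78% (4 of 59), and over all protein-coding genes 11.6% and 4.96%.

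**Figure D5:**
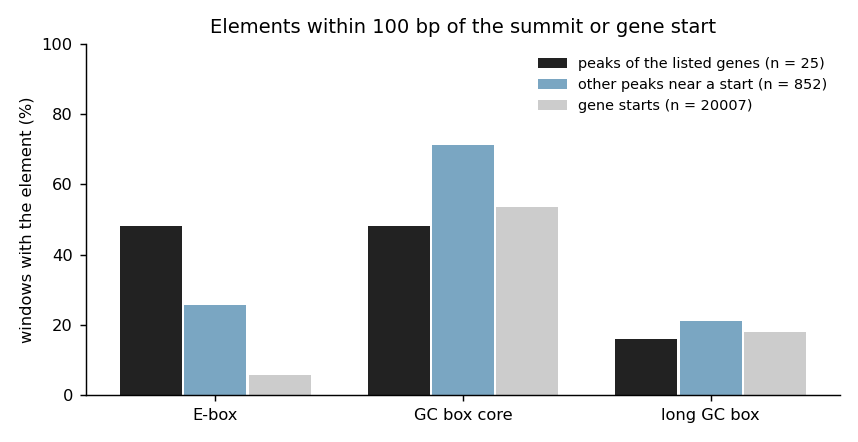
Share of windows holding each element (vertical axis, percent) within 100 bp of the summit in 25 peaks of the listed genes and 852 other peaks near a start, and within 100 bp of 20007 gene starts. The E-box is CACGTG, the GC box core is GGGCGG and the long GC box is GGGGCGGGG. The E-box was in 48% of the peaks of the listed genes and 25.6% of the other peaks, and the GC box core in 48% and 71.1%.

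Several listed genes carry small nucleolar RNAs in their introns, the guides of the same modification machinery. GENCODE v44 places at least 1 snoRNA on the same strand within 10 of the 60 genes, and 9 of these 10 had a peak entry. They were NCL, NOP56, NOP58, DKC1, WDR43, GNL3, POLR1C, TAF1D and PPAN, and the gene without a peak was TSR1. Of the 50 listed genes without a snoRNA, 16 had an entry (32%). Over all protein-coding genes the shares were 19.6% of 275 hosts and 5.99% of the remaining genes. In NOP56 and PPAN the peak was also annotated to the promoters of the hosted SNORD110 and SNORD105.

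Some of the peaks could belong to a neighbour. In 7 of the 25 peaks the table gave a promoter entry for another protein-coding gene: HIGD2A beside NOP16, PBRM1 beside GNL3, WDR92 beside PNO1, ANKRA2 beside UTP15, YIPF3 beside POLR1C, C11orf54 beside TAF1D and CCDC115 beside IMP4. With such peaks left out, 18 of the 60 listed genes (30%) had an entry, compared with 5.45% of all protein-coding genes under the same rule. A divergent start within 1000 bp was annotated for 19 listed genes, of which 7 had an entry (36.8%), compared with 18 of the other 41 (43.9%). Over all protein-coding genes the order was the other way, with entries for 10% of 1892 genes with a divergent start and 5.77% of the rest. In 23 of the 25 peaks no 31-base word occurred at a second place in the genome, and the highest share of repeated words was 15.5%, in NOP58. Repeated words were not counted in the other peaks.

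The 16 genes with an entry in the further list had a median pileup of 12.5 and a median fold enrichment of 5.26. A promoter entry was present for 8 of the 108 genes (7.41%), beside 2 of the 60 listed genes (3.33%) and 2.06% of all protein-coding genes. The 6 with the highest fold enrichment at a promoter entry were MDN1 (7.21), NIFK (6.21), UTP11 (5.37), NOL10 (5.32), POLR1E (5.06) and RIOK2 (4.67). RSL1D1, named after its value was seen, had the highest fold enrichment of that list, 8.67, in an exon 59 bp inside the gene. Of the 16 summits, 7 were downstream of the canonical start and 9 upstream.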

How the data were processed

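According to the methods, the authors trimmed reads with Trimmomatic, mapped them with BWA, removed PCR duplicates with Samtools and called peaks with MACS2 at a q-value of 0.05, with 1 ChIP library against 1 input library. The submitters' processing notes name hg38 and ChIPseeker. Pileups in the deposited table are coverage signal in ChIP fragments, fold enrichment is a ratio written by the authors' peak caller, and the p- and q-values were deposited as -log10 values of the same program. Read totals were not given in the sources used here, so single pileups carry exact 95% Poisson intervals. Background rates were recovered as the pileup plus 1 over the fold enrichment, minus 1.

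Gene entries were matched by exact symbol. The listed genes and the further list were chosen with earlier results of these data known, so no test was run and counts and medians stand beside those over all genes or peaks. All 60 listed genes are named. Of the further list, the 6 with the highest fold enrichment at a promoter entry are named. Gene starts are those of canonical transcripts in GENCODE v44 (GRCh38). Starts in the table count from 0 and were shifted by 1. Motifs were searched on both strands of hg38, and the search was checked on simulated sequence. CpG content, snoRNA hosts and divergent starts were added after the peaks were seen. GO, KEGG and protein description columns were not used. Scripts ran under Python 3.11.15 with pysam 0.24.0, pandas 2.3.3, numpy 2.4.6, numba 0.67.0, scipy 1.17.1 and matplotlib 3.10.9.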

Additional observations from a re-analysis of the deposited data

How the results depend on the processing

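Of 50 alternative values for 8 results, 45 stayed close to the main value and 5 moved further. Those taking 1 peak per gene could not move, because each listed gene had only 1 peak. Close meant within 1.5 times for counts and for the median distance, and within the exact 95% binomial interval for shares. For the medians of fold enrichment and pileup it meant the 95% Poisson interval of a single count of 13, taken as a ratio. That range is wide for a median. Counting only listed genes that the table names as the nearest gene gave 16 genes with a peak instead of 25. The number of listed genes with a promoter entry, 2, became 24 or 21 when a summit within 2000 or 500 bp of the canonical start was counted instead, and 13 with 5' UTR entries included. Among the 2 peaks with a promoter entry, CACGTG was in 0% instead of 48%. Narrowing the search to 50 bp from the summit lowered the share with GGGCGG from 48% to 28%. Stricter q-values, fold enrichment or pileup left 19 to 24 listed genes with a peak. The alternatives for the further list, the removal of peaks shared with a neighbour and the 5' UTR entries were chosen after seeing the data. No paired analysis was possible because each group had 1 library. The pileups of 9 to 26 fragments limit the order of single genes, and genes without a called peak cannot be ranked at all.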

Other observations

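The ribosomal DNA itself also carried peaks. On the contigs GL000220.1 and KI270733.1, whose annotation in the table includes 5.8S ribosomal RNA genes, 25 peaks were listed, 14 and 11. A 5.8S gene was the nearest gene of 19 of them and the spacer transcript pRNA of the other 6. Their pileups were high, 51 to 102 fragments with a median of 76, compared with 9 to 26 at the listed genes. Their fold enrichment was low, 1.69 to 4.19 with a median of 2.66, because the background rates were 19.9 to 39.2 fragments, compared with 0.927 to 3.45 at the listed genes. Ribosomal DNA is present in many copies, and the number of separate sites behind these peaks was not tested.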
